A study of Mus musculus with 12 samples.

Results

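Tumor cells can restrain immune cells through proteins on their surface, and 8 genes for such immune checkpoint ligands were examined here in MC38 cells, a mouse colon adenocarcinoma line. The genes were taken by symbol from a table of 42329 gene entries, and all 8 had an entry: Cd274, Pdcd1lg2, Cd276, Pvr, Nectin2, Cd47, Lgals9 and Nt5e. RNA came from 2 populations of these cells: one carried a control guide RNA and is named sgControl, the other carried a guide that targets Hcar1, which encodes a lactate-sensing G protein-coupled receptor, and is named sgHcar1. Each population was given PBS, a saline vehicle, or 20 mM lactate, which gave 4 groups of 3 libraries: sgControl in PBS, sgControl in lactate, sgHcar1 in PBS and sgHcar1 in lactate. The labels give a time of 24 h for lactate and none for PBS. They do not state if a population was a clone or a pool, nor if libraries of one group had cultures of their own; p-values therefore reflect only how much the 3 libraries vary, which may be technical.

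The ligands act on different arms of immunity. PD-L1 (Cd274) and PD-L2 (Pdcd1lg2) engage PD-1 on T cells and damp signalling from the T cell receptor, and their relative B7-H3 (Cd276) has been described as an inhibitor of T cells. The nectin-type proteins PVR (CD155) and NECTIN2 (CD112) bind the inhibitory receptor TIGIT and the activating receptor CD226 on T and natural killer cells, so that one ligand can serve opposite signals. CD47 binds SIRPα on macrophages and blocks engulfment, galectin-9 (Lgals9) binds sugars on several receptors including TIM-3, and CD73 (Nt5e) makes extracellular adenosine from AMP. Messenger RNA was measured here, not protein at the cell surface.

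Levels are FPKM, that is fragments normalised by the authors for gene length and for the fragments of the library, and are given as mean ± SD over 3 libraries. Changes are differences of log2(FPKM + 1) ± standard error, which understate the change of genes at low levels. They were tested with limma over all 13736 genes that reached 1 FPKM in at least 3 libraries, with Benjamini-Hochberg adjustment and a threshold of 0.05. Of the 8 genes, 6 passed that filter; Pdcd1lg2 and Nt5e did not, and had exact permutation tests instead. As a share of the deepest library, depth was 0.746 to 1, with group means of 0.955 and 0.943 for sgControl in PBS and lactate and 0.891 and 0.775 for sgHcar1. Summed over all entries, a library's FPKM came to between 310109 and 324562 with sgControl, and with sgHcar1 to between 362815 and 367977 in PBS and between 411996 and 421984 in lactate, so a comparison between the guides depends on the scale chosen. The targeted gene could not be checked, since Hcar1 was listed at 0 in 11 of the 12 libraries and at 0.0196 FPKM in 1 sgHcar1 library in PBS.

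The labelled cell type was compared with its markers. Epcam and Cdx2, which mark intestinal epithelium, were listed at 0 in all 12 libraries. Of the 9 epithelial markers with an entry, 3 reached 1 FPKM, and their sum was 3.07 to 5.16 FPKM in sgControl and 44.9 to 114 FPKM in sgHcar1 libraries, where Krt18, a keratin, made up nearly all of it. Cdh1 and Krt19 went the other way, at 1.72 and 1.31 FPKM in sgControl cells in PBS and at 0 in every sgHcar1 library. Fibroblast markers summed to 238 to 284 FPKM in sgControl and to 81.5 to 195 FPKM in sgHcar1 libraries, with Lum and Thy1 at 0. Of the 7 fibroblast markers tested, 5 were lower and 2 higher in sgHcar1 cells in PBS. Over all tested genes, 38.4% were lower and 38.2% higher in that comparison, so such calls were common. The higher ones were Col1a1 (1.01 FPKM with sgControl and 23.1 FPKM with sgHcar1) and Col1a2 (45.5 and 114.6 FPKM). Leukocyte markers summed to 8.3 to 21.0 FPKM, carried by Cd14 and Cd68, while Cd3e, Itgam and Adgre1 were at 0 and Ptprc, which encodes CD45, had a highest value of 0.0063 FPKM. The epithelial and fibroblast marker sums did not overlap between the populations, and for every difference between sgHcar1 and sgControl below, the guide's effect and another difference between the populations cannot be told apart. In bulk RNA, fewer cells with a transcript and less transcript per cell cannot be told apart either.

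The promoters of 4 of the genes are shown because their transcripts moved in different ways: Cd274, Nectin2 and Cd47 were higher in lactate in both populations, and Lgals9 moved in opposite directions. Each sequence is the 250 bases before a start given in the RefSeq promoter table for GRCm38.p6 (the first of 2 for Cd47), written 5′ to 3′ on the gene's strand, and capitals mark the matches to the motifs searched. They lie at chr19:29367188-29367437 on the plus strand (Cd274), chr7:19749574-19749823 on the minus strand (Nectin2), chr16:49855404-49855653 on the plus strand (Cd47) and chr11:78984925-78985174 on the minus strand (Lgals9). The windows of Nectin2 and Lgals9 adjoin the annotated gene, whereas those of Cd274 and Cd47 lie within the annotated gene spans, which begin farther upstream at 29362107 and 49851328.
Cd274: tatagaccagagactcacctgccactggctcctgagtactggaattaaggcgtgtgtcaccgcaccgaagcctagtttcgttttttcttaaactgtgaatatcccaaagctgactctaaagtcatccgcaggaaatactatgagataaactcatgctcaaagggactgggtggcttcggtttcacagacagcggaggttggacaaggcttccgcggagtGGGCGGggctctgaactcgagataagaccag
Nectin2: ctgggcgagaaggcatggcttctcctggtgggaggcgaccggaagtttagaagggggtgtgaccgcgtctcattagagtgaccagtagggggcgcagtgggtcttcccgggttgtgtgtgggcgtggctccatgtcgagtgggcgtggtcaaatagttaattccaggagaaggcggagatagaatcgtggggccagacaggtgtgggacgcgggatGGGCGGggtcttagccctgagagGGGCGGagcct
Cd47: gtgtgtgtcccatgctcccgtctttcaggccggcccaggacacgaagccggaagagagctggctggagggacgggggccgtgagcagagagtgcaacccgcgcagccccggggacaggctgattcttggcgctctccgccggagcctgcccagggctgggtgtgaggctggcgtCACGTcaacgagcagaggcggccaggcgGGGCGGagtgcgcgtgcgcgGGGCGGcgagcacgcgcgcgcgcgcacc
Lgals9: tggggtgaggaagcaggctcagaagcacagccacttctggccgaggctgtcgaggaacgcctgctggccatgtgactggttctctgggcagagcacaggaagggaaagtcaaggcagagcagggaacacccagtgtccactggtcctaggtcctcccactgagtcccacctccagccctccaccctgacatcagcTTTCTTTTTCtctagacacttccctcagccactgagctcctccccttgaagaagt
Motifs were sought on both strands and may overlap. The GC box (GGGCGG) stood once in Cd274, 31 to 26 bases upstream, and at 2 places each in Nectin2 and Cd47. It was not limited to genes that rose with lactate in both populations, since the windows of Cd276 and Nt5e held 3 and 4 matches, and 32.7% of all 32851 promoters of the same length held one. The promoter of Pvr was not analysed here. Cd47 also held a match to the hypoxia core (ACGTG, 16.6% of promoters) on the opposite strand, 76 to 72 bases upstream, and was rich in bases G and C (73.2%, with 30 CpG, against medians of 52.4% and 6 CpG over all promoters). Lgals9 held no GC box and had a match to an interferon regulatory factor element (GAAA, any 2 bases, GAAA; 2.98% of promoters) on the opposite strand, 55 to 46 bases upstream. No match in these windows was found for the STAT element (TTCNNNGAA), the NF-kB element (GGGA, any base, TT, any base, CC), the AP-1 element (TGANTCA), the ATF4 element (TGATGNAA), the E-box (CACGTG), the heat shock element (GAA, any 2 bases, TTC, any 2 bases, GAA) or the CRE (TGACGTCA), whose shares over all promoters were 0.466% to 7.02%. A match describes letters in a window and not binding.

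**Figure D1:**
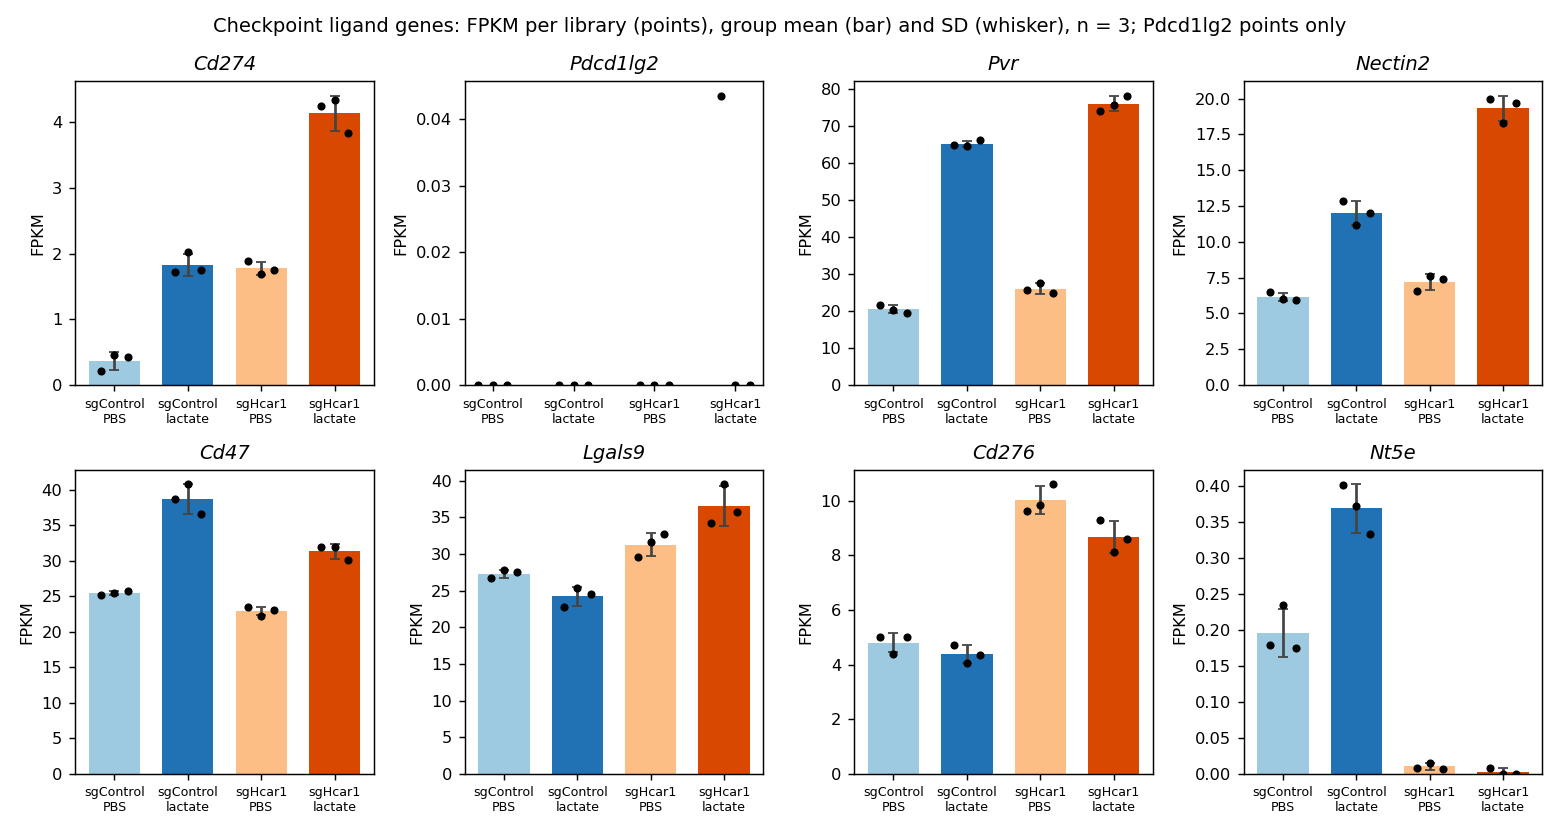
FPKM of the 8 genes in each of the 12 libraries (points), with the mean of each group of 3 libraries (bars from 0) and the SD (whiskers); each panel has its own vertical axis, and Pdcd1lg2 has points only. The lactate libraries of Cd274, Pvr, Nectin2 and Cd47 lie above the PBS libraries of the same guide, while Lgals9 falls in sgControl and rises in sgHcar1 and Cd276 and Nt5e separate by guide.

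The comparison of lactate with PBS asks what extracellular lactate did to these ligands, first in cells with the control guide. In sgControl cells, 4 of the 6 tested genes were higher in lactate (Pvr, Cd274, Nectin2 and Cd47), 1 was lower (Lgals9) and Cd276 did not pass. Of all 13736 genes tested, 65.7% passed in this comparison, 33.9% higher and 31.9% lower, so passing the test was common. The median change of the 6 genes was 0.725 on the log2 scale, against 0.000954 over all genes. In sgHcar1 cells 5 of the 6 were higher in lactate (the same 4 and Lgals9) and Cd276 was lower, against 72.2% of all genes that passed, 36.8% higher and 35.4% lower. The median change there was 0.662 for the 6 genes and 0 over all genes. Libraries of lactate and PBS did not overlap for 5 of the 6 genes in sgControl cells, against 70.2% of all genes, and for 6 of 6 in sgHcar1 cells, against 73.6%. The 4 genes that rose in both populations shared that pattern with 3174 of the tested genes (23.1%).

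Pvr, the gene of CD155, had the largest rise of the 6 genes in each population on the log2(FPKM + 1) scale. By ratio of means, Cd274 rose more in sgControl cells (5.07, against 3.18 for Pvr). Pvr was at 21.7, 20.3 and 19.5 FPKM in the sgControl libraries in PBS and at 64.9, 64.7 and 66.1 FPKM in lactate. In sgHcar1 libraries it was at 25.8, 27.6 and 24.8 FPKM in PBS and at 74.1, 75.8 and 78.3 FPKM in lactate. The 4 groups did not overlap, and every lactate library lay above every PBS library. In sgControl cells the mean of Pvr rose from 20.5 ± 1.11 to 65.2 ± 0.794 FPKM, a ratio of 3.18 (log2 change 1.62 ± 0.04, limma adjusted p = 1.56e-10). In sgHcar1 cells it rose from 26.1 ± 1.38 to 76.0 ± 2.09 FPKM, a ratio of 2.92 (1.51 ± 0.04, adjusted p = 1.27e-10). These changes moved Pvr from above 77.6% of the tested genes to above 94.3% in sgControl cells, and from above 82.4% to above 94.1% in sgHcar1 cells. The difference between the lactate effects was -0.12 ± 0.06 (adjusted p = 0.136, 95% interval -0.25 to 0.02), and so was not shown.

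Nectin2, which lies near Pvr in the genome, started lower. Its sgControl libraries were at 6.49, 6.04 and 5.94 FPKM in PBS and at 12.9, 11.2 and 12.03 FPKM in lactate. Its sgHcar1 libraries were at 6.58, 7.62 and 7.40 FPKM in PBS and at 19.95, 18.3 and 19.7 FPKM in lactate. The groups again did not overlap, but the PBS groups lay close together and the lactate groups far apart. The mean of Nectin2 rose by a ratio of 1.95 in sgControl cells (from 6.16 ± 0.294 to 12.03 ± 0.844 FPKM, log2 change 0.86 ± 0.06, adjusted p = 3.48e-07). In sgHcar1 cells the ratio was 2.68 (from 7.2 ± 0.548 to 19.3 ± 0.89 FPKM, 1.31 ± 0.06, adjusted p = 6.51e-09). The lactate effect on Nectin2 was larger in sgHcar1 than in sgControl cells by 0.45 ± 0.09 (limma interaction, adjusted p = 0.00124), although with each library rescaled to a sum of 1000000 this difference was 0.22 (adjusted p = 0.0652).

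In the RefSeq annotation of GRCm38.p6, Nectin2 spans chromosome 7 from 19716644 to 19749573 and Pvr spans 19903578 to 19921143. The gap of 154004 bp holds 9 annotated genes, of which 2 were tested. Bcl3, which encodes a regulator of NF-kB, was at 3.7 FPKM in sgControl cells in PBS and 3.94 FPKM in lactate (0.07 ± 0.10, adjusted p = 0.546), and Gm16174 was at 1.56 and 1.19 FPKM (-0.22 ± 0.17, adjusted p = 0.267). Neither passed in sgControl cells, and in sgHcar1 cells Gm16174 was lower in lactate (-0.41 ± 0.17, adjusted p = 0.0457, or 0.0898 with quantile normalization). On the far side of Pvr, Zfp180, a zinc finger gene, rose in both populations (0.70 ± 0.06 and 0.77 ± 0.06). Before Nectin2, Tomm40, a subunit of the mitochondrial import pore, fell in both (-0.48 ± 0.04 and -0.31 ± 0.04).

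Cd274, the gene of PD-L1, was low but moved with both factors. It was at 0.207, 0.456 and 0.419 FPKM in sgControl libraries in PBS and at 1.71, 2.02 and 1.75 FPKM in lactate. In sgHcar1 libraries it was at 1.88, 1.69 and 1.75 FPKM in PBS and at 4.25, 4.33 and 3.83 FPKM in lactate. The sgHcar1 libraries in PBS overlapped with the sgControl libraries in lactate, and both lay between the other two groups. These FPKM correspond to 13 to 27 fragments per sgControl library in PBS, 102 to 122 in lactate, and 94 to 221 in sgHcar1 libraries, taken as the smallest whole numbers that give the deposited ratios. Lactate raised Cd274 from 0.36 ± 0.135 to 1.83 ± 0.167 FPKM in sgControl cells (1.06 ± 0.08, adjusted p = 5.32e-07) and from 1.77 ± 0.0987 to 4.14 ± 0.266 FPKM in sgHcar1 cells (0.89 ± 0.08, adjusted p = 1.51e-06).

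Whether lactate acted on Cd274 differently in the 2 populations depended on the scale. The ratio of means was 5.07 in sgControl and 2.33 in sgHcar1 cells, while the rise in level was 1.47 FPKM with sgControl and 2.36 FPKM with sgHcar1. On the log2(FPKM + 1) scale the difference between the lactate effects was -0.17 ± 0.11 (adjusted p = 0.222, 95% interval -0.42 to 0.08). With a pseudocount of 0.1 it was -0.93 ± 0.27 (adjusted p = 0.0138), and after rescaling each library to a sum of 1000000, which raises all values against the pseudocount of 1, it was -0.81 (adjusted p = 0.00409). At its highest, in sgHcar1 cells in lactate, Cd274 lay above 38.9% of the tested genes, and in sgControl cells in PBS above 5.77%.

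Pdcd1lg2, the gene of the other PD-1 ligand, lies 22823 bp after Cd274 on chromosome 19 with no annotated gene between them. It was listed at 0 in 11 libraries and at 0.0436 FPKM in 1 sgHcar1 library in lactate. With 1 library above 0, the smallest whole number is 1 fragment by construction, so the fragment number was not determined. With 1 library above 0, every split of 6 against 6 libraries gives the same absolute difference. The exact two-sided permutation test of sgControl against sgHcar1 libraries therefore could not detect a difference, and nothing is concluded from it. Around this pair, Jak2, a kinase of interferon signalling, rose with lactate from 9.04 to 14.5 FPKM in sgControl cells (0.63 ± 0.04) and from 17.4 to 24.4 FPKM in sgHcar1 cells (0.47 ± 0.04). On the other side, Ric1 rose from 2.85 to 4.85 FPKM (0.60 ± 0.04) and from 5.14 to 14.6 FPKM (1.34 ± 0.04), while Plgrkt, between Jak2 and Cd274, passed in sgHcar1 cells (0.22 ± 0.07, adjusted p = 0.0171, lost on rescaled values at 0.07 and 0.475) and not in sgControl cells (0.12 ± 0.07, adjusted p = 0.16). Beyond Ric1, Ermp1 fell in sgHcar1 cells (-0.31 ± 0.07, adjusted p = 0.00163). In sgControl cells Ermp1 did not pass (-0.11 ± 0.07, adjusted p = 0.182, or 0.0441 with quantile normalization).

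Cd47, the signal against engulfment, was among the most abundant of the ligands. Its sgControl libraries were at 25.1, 25.4 and 25.7 FPKM in PBS and at 38.8, 40.8 and 36.6 FPKM in lactate. Its sgHcar1 libraries were at 23.5, 22.3 and 23.005 FPKM in PBS and at 31.96, 31.97 and 30.1 FPKM in lactate. No groups overlapped, and in contrast to the ligands above the highest group was sgControl in lactate. Lactate raised Cd47 by a ratio of 1.52 in sgControl cells (from 25.4 ± 0.303 to 38.7 ± 2.08 FPKM, log2 change 0.59 ± 0.04, adjusted p = 2.27e-07) and of 1.37 in sgHcar1 cells (from 22.9 ± 0.61 to 31.3 ± 1.08 FPKM, 0.43 ± 0.04, adjusted p = 1.82e-06). The effect was smaller in sgHcar1 cells by a margin near the threshold (-0.15 ± 0.06, adjusted p = 0.0398). Leaving out single libraries gave differences of -0.19 to -0.11, and the adjusted p rose above 0.05 without sgControl in PBS replicates 1, 2 or 3, sgControl in lactate replicates 1 or 2, sgHcar1 in PBS replicates 1 or 3, or sgHcar1 in lactate replicate 3, where it was 0.0536 to 0.0905.

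Lgals9, the gene of galectin-9, moved in opposite directions in the 2 populations. Its sgControl libraries were at 26.7, 27.8 and 27.5 FPKM in PBS and at 22.8, 25.3 and 24.6 FPKM in lactate. Its sgHcar1 libraries were at 29.6, 31.6 and 32.7 FPKM in PBS and at 34.2, 39.5 and 35.8 FPKM in lactate. Lactate libraries lay below the PBS libraries in sgControl cells and above them in sgHcar1 cells, with no overlap in either. The change was -0.17 ± 0.06 in sgControl cells (means 27.3 ± 0.567 and 24.3 ± 1.3 FPKM, adjusted p = 0.0232) and 0.21 ± 0.06 in sgHcar1 cells (31.3 ± 1.6 and 36.5 ± 2.73 FPKM, adjusted p = 0.00533). The difference between these effects was 0.38 ± 0.08 (limma interaction, adjusted p = 0.00189). A fall in sgControl with a rise in sgHcar1, both past the threshold, was seen in 491 of the tested genes (3.57%).

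The opposite directions of Lgals9 depended on the scaling. With each library rescaled to a sum of 1000000, the change was -0.13 in sgControl cells (adjusted p = 0.0856) and 0.03 in sgHcar1 cells (adjusted p = 0.635), and the difference between them was 0.16 (adjusted p = 0.124). With quantile normalization the sgHcar1 change was 0.06 (adjusted p = 0.332). The fall in sgControl cells also failed the threshold without sgControl in PBS replicate 2 (-0.16, adjusted p = 0.0661) or 3 (-0.16, adjusted p = 0.0585) and without sgControl in lactate replicate 1 (-0.13, adjusted p = 0.0947).

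Cd276, the gene of B7-H3, differed by guide more than by treatment. It was at 5.01, 4.39 and 5.01 FPKM in sgControl libraries in PBS and at 4.72, 4.06 and 4.34 FPKM in lactate, and these groups overlapped. In sgHcar1 libraries it was at 9.64, 9.83 and 10.6 FPKM in PBS and at 9.28, 8.12 and 8.59 FPKM in lactate, which did not overlap. Every sgHcar1 library lay above every sgControl library. Lactate changed Cd276 by -0.11 ± 0.07 in sgControl cells (means 4.8 ± 0.356 and 4.38 ± 0.332 FPKM, adjusted p = 0.164, 95% interval -0.26 to 0.04) and by -0.19 ± 0.07 in sgHcar1 cells (10.03 ± 0.511 and 8.66 ± 0.585 FPKM, adjusted p = 0.022). The fall in sgHcar1 cells failed the threshold without sgHcar1 in PBS replicate 3 (-0.15, adjusted p = 0.0847) and without sgHcar1 in lactate replicate 2 (-0.15, adjusted p = 0.0852) or 3 (-0.19, adjusted p = 0.0531). The difference between the lactate effects was not shown (-0.08 ± 0.09, adjusted p = 0.484, 95% interval -0.29 to 0.13).

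Nt5e, the gene of CD73, was below the filter in all groups. It was at 0.178, 0.235 and 0.174 FPKM in sgControl libraries in PBS and at 0.401, 0.372 and 0.334 FPKM in lactate, which stand for 26 to 31 and 45 to 59 fragments per library. In sgHcar1 libraries it was at 0.00767, 0.0155 and 0.0072 FPKM in PBS, and in lactate at 0.00854 FPKM in 1 library and 0 in the others. All 6 sgHcar1 libraries together held 5 fragments of Nt5e, against 239 in the 6 sgControl libraries. The mean was 0.282 FPKM with sgControl and 0.00649 FPKM with sgHcar1 (exact two-sided permutation test, 6 against 6 libraries, p = 0.00216, the smallest this test can give, and 0.0259 after Benjamini-Hochberg adjustment over 12 such tests). Lactate libraries lay above PBS libraries in sgControl cells by a ratio of 1.88, with an exact p of 0.1, the smallest that 3 against 3 libraries allow.

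**Figure D2:**
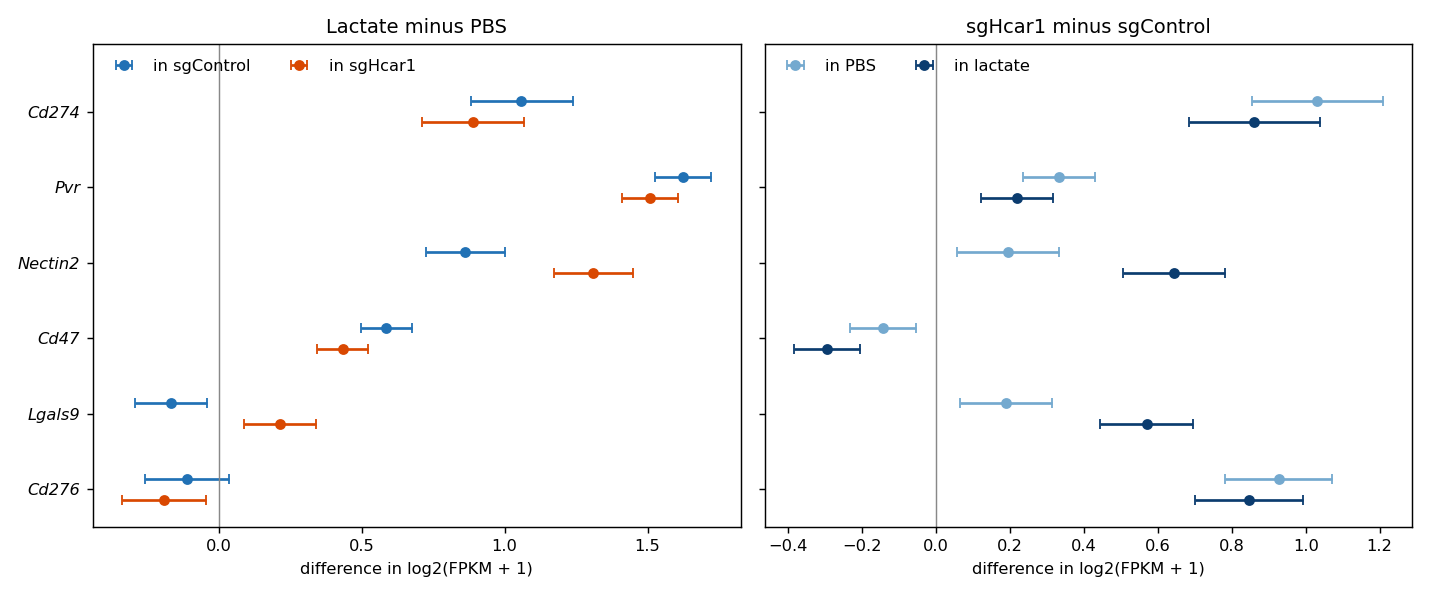
Differences in log2(FPKM + 1) with 95% intervals from limma for the 6 tested genes, lactate minus PBS by guide (left) and sgHcar1 minus sgControl by treatment (right), with 3 libraries per group. Pvr has the largest lactate effect, 1.62 and 1.51, Lgals9 lies on opposite sides of 0 for the 2 guides, and Cd274 and Cd276 have the largest differences between guides in both treatments.

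The comparison of the guides asks how cells with the Hcar1 guide differed from control cells within a treatment. In PBS, 5 of the 6 tested genes were higher in sgHcar1 cells (Cd274, Cd276, Pvr, Nectin2 and Lgals9) and Cd47 was lower, against 76.7% of all genes that passed, 38.2% higher and 38.4% lower. In lactate the directions were the same for the 6 genes, against 82.2% of all genes that passed, 41.3% higher and 40.9% lower. The guides did not overlap for any of the 6 in either treatment, against 79.2% of all genes in PBS and 82.3% in lactate. The median difference of the 6 genes was 0.264 in PBS and 0.606 in lactate, against 0.00954 and 0.00536 over all genes. Each guide comparison uses the same libraries as a lactate comparison above, so the values are given side by side and not as separate evidence.

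Cd274 and Cd276, both of the B7 family, had the largest differences. Cd274 was higher in sgHcar1 cells by 1.03 ± 0.08 in PBS (ratio of means 4.92, adjusted p = 3.54e-07) and by 0.86 ± 0.08 in lactate (ratio 2.26, adjusted p = 1.39e-06). Cd276 was higher by 0.93 ± 0.07 in PBS (ratio 2.09, adjusted p = 1.56e-07) and by 0.85 ± 0.07 in lactate (ratio 1.98, adjusted p = 2.72e-07). Both differences stayed past the threshold and in the same direction under each scaling tried.

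The smaller differences turned on the scale. Rescaling each library to a sum of 1000000 shifted the median difference of all genes by -0.165 in PBS and -0.373 in lactate, and the share of higher genes among those called went from 49.9% to 38.6% in PBS and from 50.3% to 31.7% in lactate. For the lactate effect in sgHcar1 cells the shift was -0.122 and the share went from 50.9% to 40%, and for the difference between the lactate effects the shift was -0.206 and the share went from 51.4% to 30.1%. Pvr was higher in sgHcar1 cells by 0.33 ± 0.04 in PBS (adjusted p = 3.36e-05) and by 0.22 ± 0.04 in lactate (adjusted p = 0.000782), but on the rescaled values it was lower in lactate by -0.19 (adjusted p = 0.0015), and with quantile normalization the difference was -0.05 (adjusted p = 0.31). Nectin2 was higher by 0.20 ± 0.06 in PBS (adjusted p = 0.0144, or 0.594 with a change of 0.04 on rescaled values) and by 0.64 ± 0.06 in lactate (adjusted p = 1.94e-06). The PBS difference of Nectin2 was also lost without sgControl in PBS replicate 3 (0.17, adjusted p = 0.0505) and without sgHcar1 in PBS replicate 2 (0.16, adjusted p = 0.0588). Lgals9 was higher by 0.19 ± 0.06 in PBS (adjusted p = 0.0104, or 0.831 with a change of 0.01 on rescaled values) and by 0.57 ± 0.06 in lactate (adjusted p = 2.4e-06). Cd47 was lower by -0.14 ± 0.04 in PBS (adjusted p = 0.00685) and by -0.30 ± 0.04 in lactate (adjusted p = 3.45e-05), and stayed lower under each scaling.

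**Figure D3:**
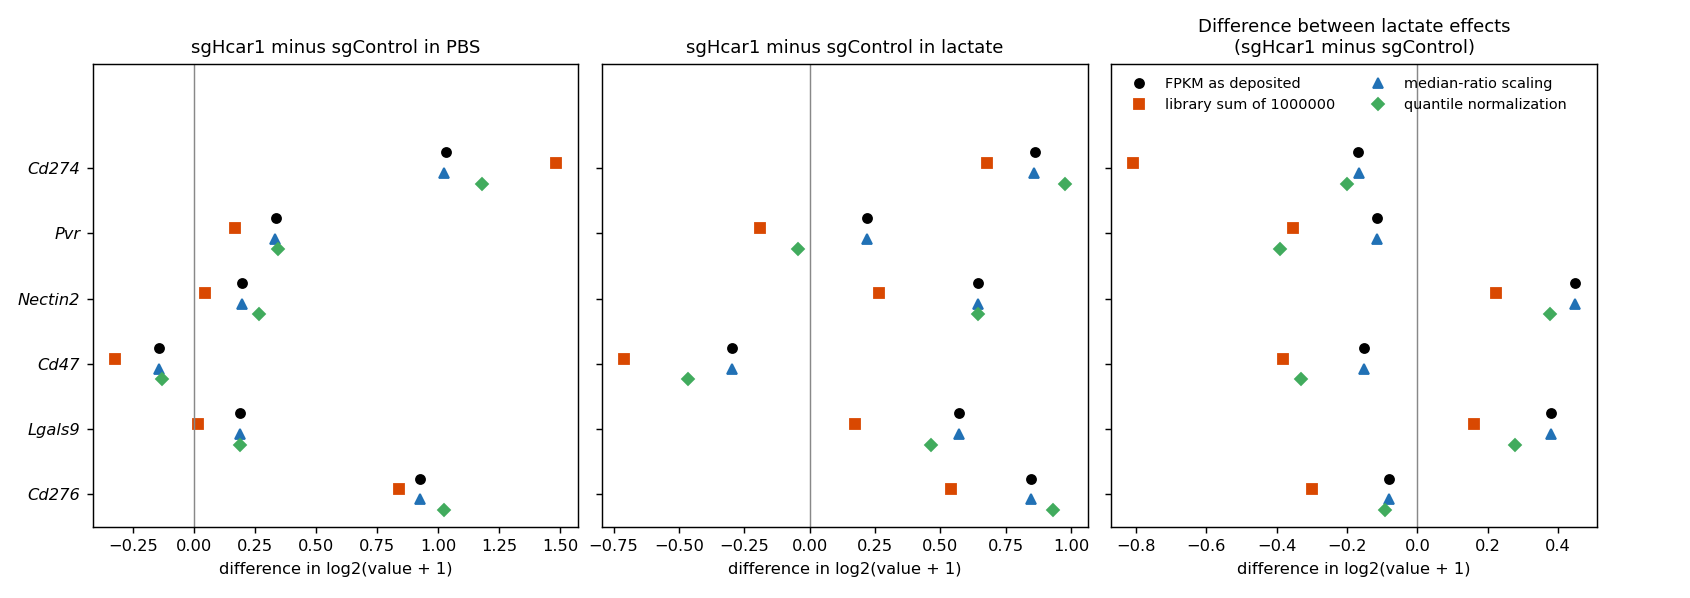
Differences in log2(value + 1) for the 6 tested genes under 4 scalings of the same libraries: FPKM as deposited, each library rescaled to a sum of 1000000, median-ratio scaling and quantile normalization. The values for sgHcar1 minus sgControl in lactate and for the difference between lactate effects spread most; Pvr in lactate runs from 0.22 as deposited to -0.19 on rescaled libraries, while Cd274 and Cd276 stay above 0 in both guide panels.

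The lactate effects differed between the populations for 3 of the 6 tested genes: Nectin2 and Lgals9 were shifted upward in sgHcar1 cells and Cd47 downward. Over all genes 59.1% passed this test, 30.4% higher and 28.7% lower, and the median of the 6 genes was -0.0978 against 0.00982 over all genes. For Cd274, Pvr and Cd276 the difference did not pass on the deposited scale. On rescaled values it did pass for them, at -0.81 for Cd274, -0.36 for Pvr (adjusted p = 0.000435) and -0.30 for Cd276 (adjusted p = 0.0323). For Pvr it also passed with quantile normalization (-0.39, adjusted p = 0.000167) and without sgControl in PBS replicate 1 (-0.16, adjusted p = 0.0429). The differences of Nectin2 and Lgals9 no longer passed on rescaled values, where 4 of the 6 genes passed, all of them lower.

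The balance among the ligands moved with lactate. The FPKM of the 8 genes added up to 84.8 ± 0.569 in sgControl cells in PBS, 147 ± 1.15 in lactate, 99.3 ± 2.08 in sgHcar1 cells in PBS and 176 ± 2.0 in lactate. In PBS the sum was spread over Lgals9, Cd47 and Pvr, with 32.2%, 30% and 24.2% in sgControl cells and 31.5%, 23.1% and 26.3% in sgHcar1 cells. In lactate Pvr alone held 44.5% in sgControl and 43.2% in sgHcar1 cells. Cd274 held 0.426% to 2.35% of the sum.

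The receptors of these ligands are genes of immune cells for the most part. They were read within a list of immune cell receptors that also held Ctla4, Cd28 and Lag3. Of its 9 genes with an entry, 3 were tested. Counts in this and the other gene lists stand beside all tested genes, of which 33.9% rose and 31.9% fell with lactate in sgControl cells and 36.8% rose and 35.4% fell in sgHcar1 cells. Tigit, the receptor of PVR and NECTIN2, was present in every library at 3.20 to 8.99 FPKM, and fell with lactate in sgControl cells from 6.97 to 3.78 FPKM (-0.74 ± 0.08, adjusted p = 1.48e-05). In sgHcar1 cells Tigit was at 8.5 FPKM in PBS and 7.78 FPKM in lactate, and did not pass (-0.12 ± 0.08, adjusted p = 0.242, though -0.30 and 0.0114 on rescaled values). Sirpa, the receptor of CD47, was at 22.2 FPKM in PBS and 17.5 FPKM in lactate with the control guide, and at 0 in each of the 6 sgHcar1 libraries. Havcr2, which encodes TIM-3, was at 0.904 and 1.66 FPKM in sgControl cells and at 0.0919 and 0.332 FPKM in sgHcar1 cells, and was higher in lactate in both (0.48 ± 0.11 and 0.28 ± 0.11). Pdcd1, the gene of PD-1, and Cd226 were at 0 in all libraries.

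Among the nectin relatives and partners, 4 of 7 with an entry were tested. In both treatments 2 were higher and 2 lower in sgHcar1 cells, where 76.7% of all genes passed in PBS and 82.2% in lactate. Nectin3 and Cadm1 passed the filter only through the population that expressed them. The filter itself thus favoured a difference for them, and the count is no result about the family. Nectin3, a partner of NECTIN2 in cell contacts, was at 3.52 and 3.37 FPKM in sgControl cells and at 0 in all sgHcar1 libraries. Cadm1, a nectin-like adhesion gene, showed the reverse, with at most 0.00213 FPKM in the sgControl means and 26.7 and 26.4 FPKM in sgHcar1 cells. With lactate, Nectin1 fell in both populations (-0.50 ± 0.10 and -0.29 ± 0.10, the latter with an adjusted p of 0.0599 after quantile normalization) and Cadm4 rose in sgHcar1 cells (0.47 ± 0.10). In sgControl cells none of the 4 rose and 1 fell, where 33.9% of all genes rose and 31.9% fell. Cadm1 was hardly expressed there in either treatment, so these few genes do not show how the family responded.

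Of 8 genes of the CD47 axis with an entry, 7 were tested, and in sgControl cells 2 rose and 4 fell with lactate, while in sgHcar1 cells 3 rose and 1 fell. On values rescaled to 1 library sum the sgHcar1 count was 1 risen and 1 fallen, and with quantile normalization 2 and 1. Calr, which encodes calreticulin, an endoplasmic reticulum chaperone that on the cell surface promotes engulfment, rose from 246 to 753 FPKM in sgControl cells (1.61 ± 0.03) and from 141 to 746 FPKM in sgHcar1 cells (2.40 ± 0.03). Its transcript rose alongside that of Cd47, and by more on the log2 scale. Qpctl, whose product modifies CD47 for SIRPα binding, fell in sgControl cells (-0.40 ± 0.07) and rose in sgHcar1 cells (0.18 ± 0.07, adjusted p = 0.0377, but 0.07 with an adjusted p of 0.494 on rescaled values). The rise of Thbs2 in sgHcar1 cells (0.17 ± 0.06, adjusted p = 0.0291) was likewise lost on rescaled values (0.00301, adjusted p = 0.997) and with quantile normalization (adjusted p = 0.246). Thbs2 and Thbs1, of the thrombospondin family that includes a CD47 ligand, were at 0.206 and 0.2 FPKM in sgControl cells in PBS and at 9.53 and 3.74 FPKM with sgHcar1.

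Of the other galectin genes, 6 were tested, and with lactate 2 rose and 1 fell in sgControl cells and 4 rose and none fell in sgHcar1 cells, where on rescaled values 3 rose and 1 fell. Lgals3bp, which encodes a galectin-binding protein and is no galectin, had a change of 0.40 ± 0.07 with lactate in sgControl cells, and in sgHcar1 cells it fell (-0.59 ± 0.07); both passed. Lgals8 rose with lactate in both populations (1.14 ± 0.04 and 0.70 ± 0.04), from 20.2 to 45.7 FPKM in sgControl cells and from 27.6 to 45.6 FPKM in sgHcar1 cells. Lgals3 rose modestly in both (0.31 ± 0.03 and 0.33 ± 0.03), while Lgals1, the most abundant at 1702 FPKM in sgControl cells in PBS, fell in sgControl cells (-0.66 ± 0.16). Lgals7 marked the guides, at 0.127 FPKM with sgControl and 33.4 FPKM with sgHcar1 in PBS (4.93 ± 0.08, adjusted p = 9.63e-13).

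CD73 works among other enzymes, carriers and receptors of the adenosine pathway. Of 15 listed genes, 6 were tested, and in PBS 5 were lower in sgHcar1 cells and 1, the carrier Slc29a2, was higher (3.14 and 6.13 FPKM), while in lactate 4 were lower and 2 did not pass. Of all genes 38.4% were lower in PBS and 40.9% in lactate. Entpd2 and Adora2b passed the filter only through sgControl libraries, so the filter favoured a lower call for them and the count is partly built in. On rescaled values all 6 were lower in lactate, with Adk at -0.49 and Slc29a2 at -0.66. Entpd2, which breaks down extracellular ATP, was at 11.4 FPKM with sgControl and 0.0284 FPKM with sgHcar1 in PBS (-3.59 ± 0.11). Ada, which removes adenosine, was at 13.999 and 2.26 FPKM (-2.20 ± 0.08), the carrier Slc29a1 at 71.0 and 21.3 FPKM (-1.69 ± 0.03) and the receptor Adora2b at 2.62 and 0.225 FPKM (-1.56 ± 0.11). Adk, the adenosine kinase, fell with lactate in both populations (-0.87 ± 0.06 and -0.62 ± 0.06). Entpd1, the gene of CD39, reached at most 0.0223 FPKM in any library.

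Among other inhibitory ligands, 6 of 15 with an entry were tested, and with lactate in sgControl cells 1 rose, 2 fell and 3 did not pass. Between the guides, 1 was higher and 5 were lower in sgHcar1 cells, in PBS and in lactate alike. Of all genes, 38.4% were lower in PBS and 40.9% in lactate. The higher one, Lgals1, did not pass with quantile normalization in either treatment. Among the lower ones, Nectin3 passed the filter only through sgControl libraries, so the filter favoured its lower call. Hmgb1, a nuclear protein that binds TIM-3 when released, fell in both populations (-1.11 ± 0.06 and -0.94 ± 0.06). Tgfb1, a cytokine that suppresses T cells, rose in sgHcar1 cells (0.55 ± 0.06) and was lower there than in sgControl cells in PBS (-1.28 ± 0.06). Of 4 costimulatory ligands tested, Cd80, which activates T cells through CD28 and also binds PD-L1, stood at 0.0916 and 0.212 FPKM in sgControl cells in PBS and lactate and at 3.84 and 15.7 FPKM in sgHcar1 cells. Its rise in sgHcar1 cells was 1.81 ± 0.12 (adjusted p = 8.39e-08). Tnfsf9, the ligand of 4-1BB, fell with lactate in both populations (-0.63 ± 0.08 and -0.78 ± 0.08).

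**Figure D4:**
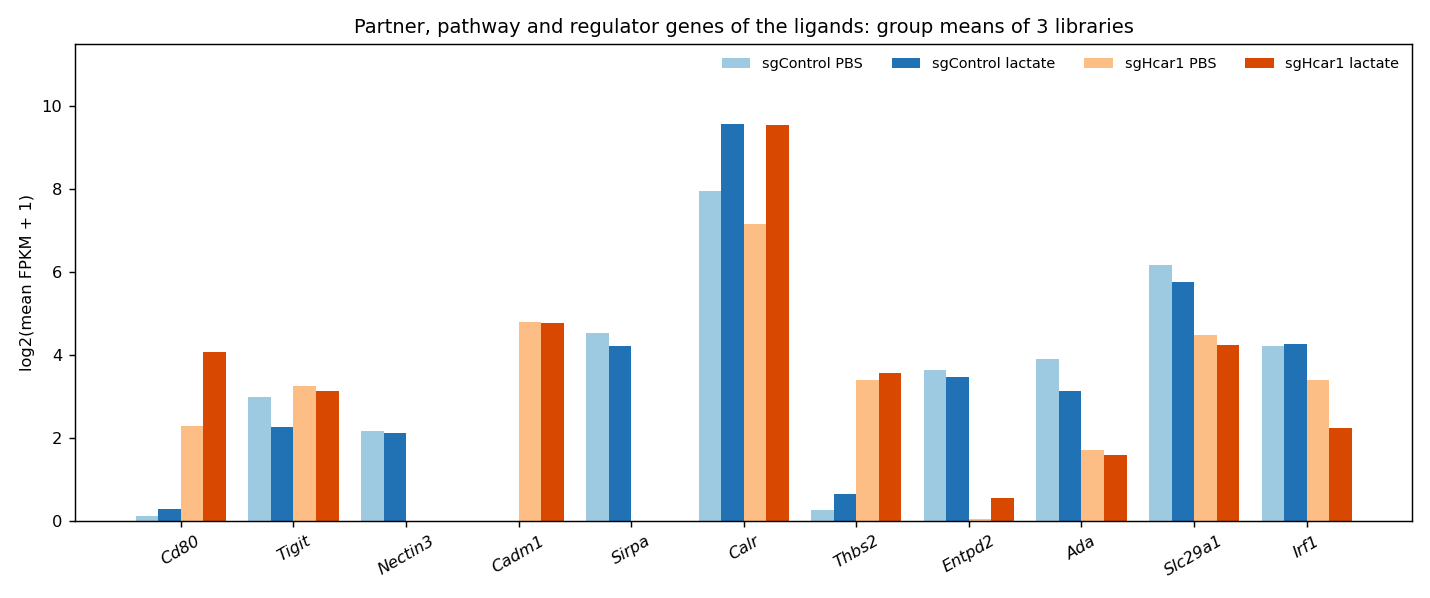
log2(mean FPKM + 1) of 11 receptor, partner, pathway and regulator genes in the 4 groups, as means of 3 libraries with no error shown. Calr has its higher bars in lactate for both guides, Sirpa and Nectin3 have bars in sgControl alone, and Cadm1 has bars in sgHcar1 alone.

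Known regulators of Cd274 were read from the same fit, and all 21 listed genes were tested. The list was not split into genes that raise and genes that lower PD-L1, so its counts and medians give no direction for Cd274. With lactate, 14 rose and 5 fell in sgControl cells and 15 rose and 5 fell in sgHcar1 cells, with medians of 0.28 and 0.494. Over all genes 65.7% passed in sgControl cells and 72.2% in sgHcar1 cells, about evenly in either direction. On rescaled values 3 of these 15 rises no longer passed (Ifngr2, Stat2 and Irf9, with changes of 0.11, -0.01 and 0.14). Myc, a transcription factor, rose in sgControl cells from 36.0 to 97.2 FPKM (1.41 ± 0.05), and Stat3, which cytokine receptors activate, rose in both populations (0.83 ± 0.05 and 1.33 ± 0.05). Jun, a subunit of AP-1, was at 81.2 FPKM in PBS and 58.4 FPKM in lactate in sgControl cells and rose from 41.7 to 158 FPKM in sgHcar1 cells (1.90 ± 0.06). Between the guides in PBS, 6 of the 21 were higher and 14 lower in sgHcar1 cells, against 38.2% and 38.4% of all genes. On rescaled values 3 were higher and 14 lower, since Hif1a (-0.03, adjusted p = 0.507), Myc (0.13, adjusted p = 0.0747) and Stub1 (0.11, adjusted p = 0.149) no longer passed. Stat2 and Irf9, which act in interferon signalling, were among the higher ones (1.46 ± 0.06 and 1.36 ± 0.06), with Stat2 at 5.62 FPKM with sgControl and 17.3 FPKM with sgHcar1. Irf1, an interferon-induced activator of Cd274, had the reverse pattern in lactate, at 18.4 FPKM with sgControl and 3.71 FPKM with sgHcar1 (-2.04 ± 0.05).

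Likeness of pattern was measured as the root mean square difference of centred log2(FPKM + 1) over the 12 libraries, and is a description. Among the ligands themselves Pvr and Nectin2 were the closest pair (0.294) and Pvr and Cd276 the farthest (0.916). Of all tested genes with a standard symbol, the nearest were Fam135a (0.131) and Hspa9 (0.133) to Cd274, and Alg2 (0.0905) and Osbpl2 (0.0966) to Pvr. Sec16a (0.0871) and Spcs2 (0.0888) were nearest to Nectin2, and Tnpo2 (0.0458) and Lims1 (0.0497) to Cd47. For Lgals9 they were Slc25a12 (0.0588) and Cops5 (0.0673), and for Cd276 they were Glb1l and Fbxw4 (0.0849 each). Alg2, an enzyme of protein glycosylation, stood at 8.48, 30.8, 11.1 and 36.7 FPKM in sgControl in PBS and lactate and sgHcar1 in PBS and lactate.

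The remaining ligand genes lie apart from each other: Cd47 spans chromosome 16 from 49851328 to 49912503, Lgals9 chromosome 11 from 78962979 to 78984924, and Cd276 and Nt5e chromosome 9 from 58524300 to 58555033 and from 88327609 to 88372089. Beside Lgals9, Nos2, the inducible nitric oxide synthase, rose with lactate in sgControl cells from 3.14 to 13.9 FPKM (1.85 ± 0.07, adjusted p = 2.05e-09), where Lgals9 fell, and was at 0.014 and 0.0221 FPKM in sgHcar1 cells. Beside Nt5e, Tbx18, a transcription factor of mesenchymal development, was at 4.38 and 5.51 FPKM with the control guide and at 0 in every sgHcar1 library. Next to Cd276, Nptn, an adhesion gene, fell with lactate in both populations (-0.21 ± 0.03 and -0.16 ± 0.03). Beside Cd47, Ift57, a gene of ciliary transport, rose in sgControl cells (0.40 ± 0.04) and in sgHcar1 cells (0.15 ± 0.04), where on rescaled values the change was -0.02 (adjusted p = 0.598).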

How the data were processed

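RNA was sequenced in 12 libraries of MC38 cells, 3 in each of 4 groups. Per the labels, Trizol RNA (1 µg) went into TruSeq libraries, and the submitters' processing notes list GRCm38 as the build, HISAT2 (2.0.5) and also featureCounts (1.5.0-p3). The authors deposited FPKM for 42329 entries with identifiers of the C57BL/6NJ strain annotation; what enters the library total is not given in the sources used here. Columns were matched to groups by their letters, with those of sgHcar1 read by elimination.

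The log2(FPKM + 1) of the deposited values was modelled in limma (3.58.1, under R 4.3.3). The fit used all 12 libraries, 1 mean per group, an intensity trend and no replicate block, on 13736 genes that reached 1 FPKM in 3 or more libraries. Tests were two-sided, with Benjamini-Hochberg adjustment over all genes in each of 5 contrasts. Genes below the filter had exact permutation tests. The model was tested on simulated data. Read depth is not given; whole fragment numbers behind the FPKM of each ligand were recovered as the smallest set within 0.02 of whole numbers, and describe depth only.

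The ligands and the other gene lists were chosen with earlier results of these data known. Text names all ligands, Hcar1 and the 2 genes nearest in pattern. List genes were taken from up to 4 called genes per list and contrast by size of change, and neighbours from the 3 tested genes on either side. Not all of these list genes and neighbours are named, and the choice among them followed no stated rule. Genes given only as levels, as markers or for a scaling were named after their values were seen. One entry whose symbol is stored as a date was passed over. Alternatives were the pseudocount, filters, scalings, no trend, a replicate block, fits to only 2 groups, and leaving out single libraries. Coordinates and promoters came from RefSeq for GRCm38.p6 by symbol. Afdn, Ceacam1, H2-T23, Itgax, Krt20, Lrp1, Lyz2, Pvrig and Ulbp1 were not analysed here. One gene is not reported here, and counts over the regulators of Cd274 leave it out. Tables and figures were made in Python 3.11.15 (pandas 2.3.3, numpy 2.4.6, matplotlib 3.10.9).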

Additional observations from a re-analysis of the deposited data

Results flagged for a closer look

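The lactate effect differed between the populations, by the interaction term in limma, for 3 ligands. Nectin2 rose by 0.4475 more in sgHcar1 than in sgControl cells on the log2 scale, Lgals9 by 0.3811 more, and Cd47 rose by less in sgHcar1 cells (-0.1516). With each library rescaled to a sum of 1000000, the differences of Nectin2 (0.225, limma adjusted p = 0.0652) and Lgals9 (0.16, adjusted p = 0.124) did not pass. That of Cd47 was near the threshold as deposited (limma adjusted p = 0.0398). It was lost in most fits that left out a single library, with no filter and with no variance trend. Over all genes 59.1% passed this test, and a share of 3 in 6 is not above it. The marker sums of the populations differed too, with epithelial markers at 3.07 to 5.16 FPKM in sgControl and 44.9 to 114 FPKM in sgHcar1 libraries. Krt18 made up nearly all of the sgHcar1 sum, while Cdh1 and Krt19 were at 0 in those libraries. The part of the marker sums in the differences between lactate effects was not tested.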

How the results depend on the processing

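Of the 5 contrasts, none changed its count of called ligands or of called genes by more than 1.5 times under any alternative, except that a filter on a mean of at least 5 FPKM, which tests fewer genes by construction, left 6815 genes called between the guides in PBS and 7191 in lactate. A steady count can hide a change of genes and of direction. For the difference between lactate effects, 2 ligands were higher and 1 lower as deposited. On libraries rescaled to a sum of 1000000, 0 were higher and 4 lower. Pvr between the guides in lactate turned from 0.22 to -0.19 on libraries rescaled to a sum of 1000000 and to -0.046 with quantile normalization; the cause was not tested. Median-ratio scaling moved the median of all genes by at most 0.000198. Of the ligands' log2 changes under an alternative, 585 kept their direction and their side of the threshold, 25 lost the call, 7 gained it and 2 reversed. The difference between lactate effects for Cd47 was also lost with no filter (adjusted p = 0.0603) and with no variance trend (adjusted p = 0.0572), and Cd276 in sgControl cells passed with quantile normalization (-0.16, adjusted p = 0.0482).

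Leaving out 1 library gave 8524 to 9051 genes called for lactate in sgControl, 9541 to 9895 in sgHcar1, 10120 to 10558 between the guides in PBS, 10980 to 11275 in lactate and 7716 to 7929 for the difference, and for Nt5e a difference between the guides of -0.2975 to -0.2522 FPKM. With the replicate number as a block, 8938, 9899, 10480, 11260 and 8044 genes were called, and no ligand changed its call. Libraries with the same number did not deviate together (r = -0.0505 to 0.085 over 18 pairs, against -0.102 to 0.0768 over 36 pairs with other numbers), so the numbers were not taken to pair samples.

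Depth limits the low genes. Pdcd1lg2 was above 0 in 1 library only. Nt5e rests on 5 fragments in sgHcar1 cells, and Cd274 on 13 to 27 per library in sgControl cells in PBS.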
